A study of Mus musculus with 6 samples.

Results

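A set of 6 genes that mark granule cells of the dentate gyrus was examined in hippocampal RNA, namely Prox1, Dsp, Tdo2, C1ql2, Lct and Calb1. They were taken by symbol from the deposited expression table, where they are 6 of 54532 genes, and each symbol named 1 row. Levels are in FPKM, a read count divided by the length of the gene and the size of the library. All 6 genes passed the minimum for testing, a mean of 0.1 FPKM, as did 20952 genes in all. RNA-seq was available for 3 wild-type (WT) mice and 3 TG mice, which carry the G82R and L85P changes in exon 3 of Slc1a2, the gene of the astrocytic glutamate transporter GLT-1. The line was made with CRISPR/Cas9 in C57BL/6N mice and the founders were mated to C57BL/6 mice, and WT littermates served as controls. The changes sit in the gene itself, so no promoter or Cre driver restricts them to a cell type. Whether the sequenced TG mice were heterozygous or homozygous, their age and whether animals were pooled were not given in the sources used here. The p-values therefore measure the spread between these libraries. Each library is named by its group and replicate number, such as WT1 or TG3.

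Granule cells are the principal neurons of the dentate gyrus, the entry gate of the hippocampus. They receive input from the entorhinal cortex and send mossy fibre axons to mossy cells and to CA3 pyramidal cells, and new granule cells are still added in the adult mouse. Prox1 is the homeobox transcription factor that sets and keeps granule cell identity against a CA3 fate. C1ql2 is a secreted C1q-like protein released at mossy fibre synapses, and Dsp encodes desmoplakin, which links desmosomes to intermediate filaments. Tdo2 encodes tryptophan dioxygenase, the first enzyme of the kynurenine pathway, and Lct encodes lactase, an enzyme of the intestinal brush border. Calb1 encodes the calcium-binding protein calbindin, which mature granule cells hold at a high level and which CA1 pyramidal cells and some interneurons also express. In RNA of a whole hippocampus, fewer granule cells and less RNA per granule cell cannot be told apart.

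The libraries held 16081281 to 18751057 reads on genes, so that 3 reads on a gene of 1 kb gave 0.160 to 0.190 FPKM. Slc1a2 itself was read at 177.3 to 202.5 FPKM in WT and 207.1 to 222 FPKM in TG libraries (adjusted p = 0.789, limma), and FPKM hold no bases from which the changed codons could be read. Libraries TG1 and TG2 both stood apart in their choroid plexus transcripts. The 15 genes of a choroid plexus list, which mark the secretory epithelium of the ventricles, took 0.235% of the reads of TG1 and 0.731% of those of TG2, against 0.0248% to 0.031% in WT libraries and 0.0277% in TG3. Of these 15 genes, 15 had a positive difference and 10 were higher at an unadjusted p under 0.05 in limma, their summed FPKM was 83.2 to 112.2 in WT and 93.2 to 4218 in TG libraries, and 0 of them were at 0 in all libraries. The most abundant, Ttr, the transthyretin gene, had 49.8 to 73.0 FPKM in WT, 1168 in TG1, 3705 in TG2 and 57.7 in TG3, and the potassium channel gene Kcnj13 had the smallest p of the list (unadjusted p = 0.0138, limma). All listed markers of CA1, CA2 and CA3 pyramidal cells passed the minimum for testing.

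The start regions of 3 of the markers are shown because Prox1 and Dsp had the closest profiles over the libraries, while Tdo2 had the largest difference between groups. The sequences are RefSeq promoter windows of GRCm38.p6, from 250 bases before to 50 bases after an annotated start, and 5 of the 6 genes matched an entry, all but Calb1. Capitals mark matches, on either strand, to CANNTG (the E-box read by neurogenic bHLH factors), GGGCGG (a GC box), CCAAT and TATAAA. The windows lie at chr1:190170778-190171077 on the minus strand for Prox1, which has a second window further downstream, at chr13:38151044-38151343 on the plus strand for Dsp and at chr3:81975679-81975978 on the minus strand for Tdo2.
Prox1: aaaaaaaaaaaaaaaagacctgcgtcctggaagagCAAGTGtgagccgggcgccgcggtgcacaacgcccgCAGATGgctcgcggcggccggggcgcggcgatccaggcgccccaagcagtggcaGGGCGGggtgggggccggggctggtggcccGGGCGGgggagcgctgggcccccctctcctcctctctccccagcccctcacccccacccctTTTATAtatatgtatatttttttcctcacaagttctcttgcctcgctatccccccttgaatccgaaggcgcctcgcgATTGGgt
Dsp: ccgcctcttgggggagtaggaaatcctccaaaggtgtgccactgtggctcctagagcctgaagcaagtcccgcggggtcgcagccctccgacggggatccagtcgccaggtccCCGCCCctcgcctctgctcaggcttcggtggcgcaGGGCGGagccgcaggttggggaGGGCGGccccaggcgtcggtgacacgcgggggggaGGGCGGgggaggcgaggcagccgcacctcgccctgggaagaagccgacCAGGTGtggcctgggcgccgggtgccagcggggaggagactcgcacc
Tdo2: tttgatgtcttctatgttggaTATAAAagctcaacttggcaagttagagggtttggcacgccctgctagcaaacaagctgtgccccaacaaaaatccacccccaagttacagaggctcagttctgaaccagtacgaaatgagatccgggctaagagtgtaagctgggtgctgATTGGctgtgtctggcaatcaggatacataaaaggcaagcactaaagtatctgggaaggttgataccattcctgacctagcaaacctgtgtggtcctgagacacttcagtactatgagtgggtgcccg
The Dsp window was the richest in G and C, at 73% with 27 CpG dinucleotides, and held GGGCGG at 4 places, from 137 to 45 bases before the start. The Prox1 window had 64.3% G and C with 25 CpG, GGGCGG at 2 places, CANNTG at 2 places, 1 TATAAA match 34 bases before the start and 1 CCAAT match 44 bases after it. The Tdo2 window had 47.7% G and C, 4 CpG and no match to GGGCGG or CANNTG. Like the Prox1 window shown, it held 1 CCAAT match, 78 bases before the start, and 1 TATAAA match, 229 bases before it. The C1ql2 window (chr1:120340332-120340631, plus strand) resembled the first pair with 67.3% G and C and 23 CpG, and the Lct window (chr1:128328269-128328568, minus strand) resembled that of Tdo2 with 44.7% and 1 CpG. The median over all 32851 promoter windows was 52.7% and 7 CpG. CANNTG occurred in 72.3% of all windows, CCAAT in 37.4%, GGGCGG in 35.7% and TATAAA in 13.6%. TGACG, the core of the cyclic AMP response element, was searched as well and matched none of the 5 genes' windows, against 20.8% of all windows. A match is a string of letters and was not tested as a binding site.

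All 6 markers were expressed in every library, over a wide range of levels. C1ql2 was the most abundant per length, at a mean of 56.1 FPKM over the 6 libraries, which lies at percentile 96.3 of the genes tested. Calb1 followed at 26.6 FPKM, Prox1 at 11.9, Lct at 7.07, Dsp at 6.21 and Tdo2 at 1.82 FPKM, the last at percentile 45.2. This order held in 6 of 6 libraries for each neighbouring pair. The ranges over libraries of Lct and Dsp overlapped, and within a library the ratio of Lct to Dsp was 1.009 to 1.264. All other neighbours were separated without overlap, by ratios within a library of 1.388 or more.

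None of the 6 markers differed between TG and WT mice at an adjusted p under 0.05 (limma on log2(FPKM + 0.1), Benjamini-Hochberg over all genes tested). Over all genes tested, 2 did, or 0.00955%. At an unadjusted p under 0.05, Calb1 and Tdo2 were lower in TG and no marker was higher, where 2.78% of all genes tested were lower and 3.13% higher. Calb1 was the 1 marker whose TG libraries all lay below every WT library, a pattern that 5.71% of all genes showed, and no marker had all TG libraries above, against 6.35% of all genes. Of the differences, 4 were negative and 2 were positive. The median log2 difference of the 6, TG minus WT, was −0.13, beside −0.00195 over all genes tested. Without WT2 this median was −0.02, and with 1 other library left out it lay between −0.19 and −0.09. With the choroid plexus covariate it was −0.21.

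**Figure D1:**
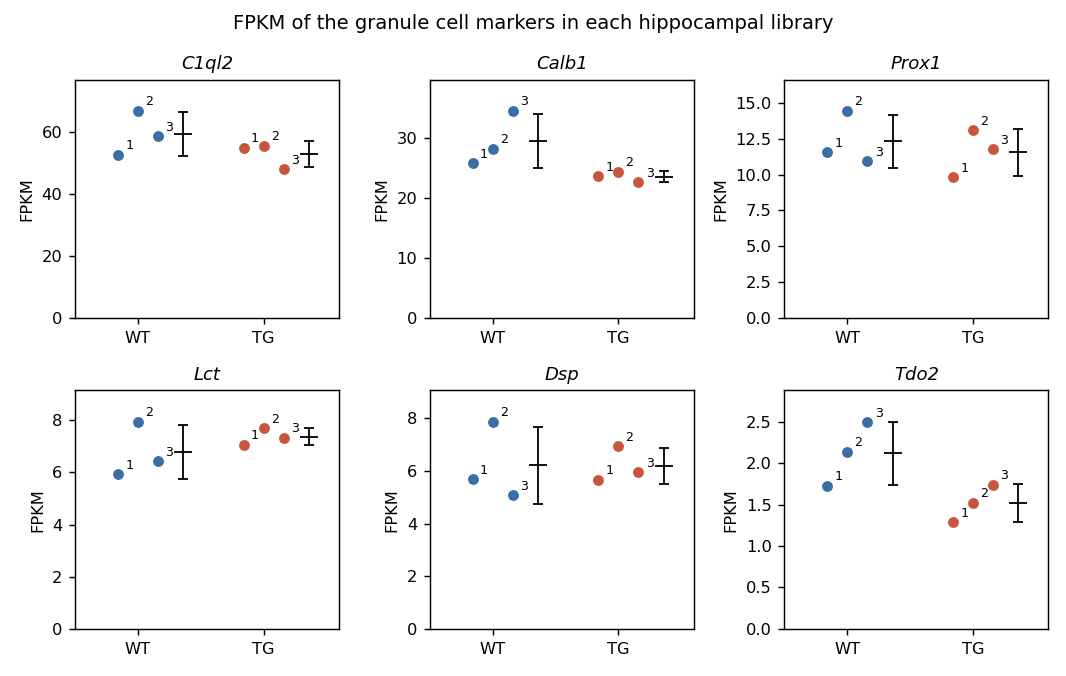
FPKM of the 6 granule cell markers (vertical axes, each starting at 0) in each WT (blue) and TG (red) library, with the replicate number beside each point and black marks for the group mean ± SD (n = 3). The 3 TG points lie below all WT points for Calb1, and the highest TG point of Tdo2 sits level with the lowest WT point.

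Among the markers, the transcription factor Prox1 (ENSMUSG00000010175, chr1:190118035-190170714, minus strand, GRCm38) was read at 11.55, 14.43 and 10.92 FPKM in the WT and at 9.814, 13.08 and 11.75 FPKM in the TG libraries, in the order of their replicate numbers, which is used throughout. The highest value was in a WT library and the lowest in a TG library, with the others interleaved. The log2 difference was −0.09 ± 0.14 (SE, 95% interval −0.42 to 0.24, adjusted p = 0.879 by limma), an interval of −25.2% to 18.1% as a change from WT. Counts of 1303 to 1967 reads stood behind these values. An antisense transcript, Prox1os, overlaps the start of Prox1 with up to 136 reads in a library, and the strand used in counting was not given.

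The genes of cell contact and synapse followed. Dsp (ENSMUSG00000054889, chr13:38151294-38198577, plus strand) had 5.689, 7.884 and 5.093 FPKM in the WT and 5.672, 6.953 and 5.967 FPKM in the TG libraries, with WT2 highest and WT3 lowest. Both group means were close to 6.2 FPKM, at 6.22 ± 1.47 in WT and 6.20 ± 0.671 in TG (SD, n = 3). Between TG and WT the log2 difference was 0.01 ± 0.17 (SE, 95% interval −0.38 to 0.41, adjusted p = 0.989, limma). Dsp had the widest spread of the 6 markers among WT libraries, with a coefficient of variation of 23.6%. C1ql2 (ENSMUSG00000036907, chr1:120340582-120343174, plus strand) had 52.6, 66.77 and 58.51 FPKM in the WT and 54.88, 55.56 and 48.01 FPKM in the TG libraries. TG1 and TG2 exceeded WT1, and TG3 was the lowest of all. C1ql2 differed by −0.16 ± 0.11 on the log2 scale (SE, 95% interval −0.41 to 0.09, adjusted p = 0.7895, limma). For neither gene was the difference larger than the spread between libraries.

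Of the enzymes, Tdo2 (ENSMUSG00000028011, chr3:81957090-81976202, minus strand) had 1.728, 2.138 and 2.491 FPKM in the WT and 1.286, 1.524 and 1.741 FPKM in the TG libraries. The groups met at 1 point, where TG3 exceeded WT1 by 0.0125 FPKM. Its group means were 2.12 ± 0.382 and 1.52 ± 0.227 FPKM (SD, n = 3), and the log2 difference was −0.45 ± 0.18 (SE, 95% interval −0.87 to −0.03, unadjusted p = 0.0379, adjusted p = 0.786, limma). Tdo2 rested on the fewest reads of the 6 markers, 124, 134 and 181 in WT and 79, 106 and 122 in TG libraries. The exact 95% Poisson interval of a single library, which covers counting error only, ran from 1.018 to 1.603 FPKM in TG1 and from 1.437 to 2.06 FPKM in WT1. Without TG1 and TG2, the libraries with choroid plexus RNA, the log2 difference was −0.26 (unadjusted p = 0.381, limma with 1 TG library taken to vary like the others). With the choroid plexus score as a covariate it was −0.29 (unadjusted p = 0.301, limma).

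Lct (ENSMUSG00000026354, chr1:128284756-128328318, minus strand) was read at 5.944, 7.954 and 6.437 FPKM in the WT libraries and at 7.073, 7.707 and 7.33 FPKM in the TG libraries. All TG libraries exceeded WT1 and WT3 and stayed below WT2. Lct differed by 0.13 ± 0.12 on the log2 scale (SE, 95% interval −0.15 to 0.40, adjusted p = 0.7895, limma). Without WT2 it was 0.25, with an unadjusted p of 0.0329 by limma, so that 1 library decided on which side of the unadjusted threshold Lct lay. The TG libraries were tight, with a coefficient of variation of 4.32% against 15.4% in WT.

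The calcium buffer Calb1 (ENSMUSG00000028222, chr4:15881264-15908064, plus strand) had 25.78, 28.22 and 34.55 FPKM in the WT and 23.69, 24.42 and 22.65 FPKM in the TG libraries. The lowest WT and the highest TG library were 1.37 FPKM apart. Group means were 29.5 ± 4.53 FPKM in WT and 23.6 ± 0.89 FPKM in TG (SD, n = 3). The log2 difference was −0.31 ± 0.11 (SE, 95% interval −0.57 to −0.05, unadjusted p = 0.0245, adjusted p = 0.786, limma), a change of −19.5% with an interval of −32.7% to −3.62%. It ranked 542 among the genes tested by p. WT3 lay well above the other WT libraries, and without it the log2 difference was −0.19 (unadjusted p = 0.0304, limma). Without TG1 and TG2, which leaves 1 TG library, the log2 difference was −0.37. With the choroid plexus score as a covariate it was −0.35 (unadjusted p = 0.0819, limma). With 1 library left out, the unadjusted p of Calb1 ran from 0.00877 to 0.075 in limma. Without a variance trend it was 0.0599 (limma). The part of choroid plexus RNA in this difference was not tested.

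**Figure D2:**
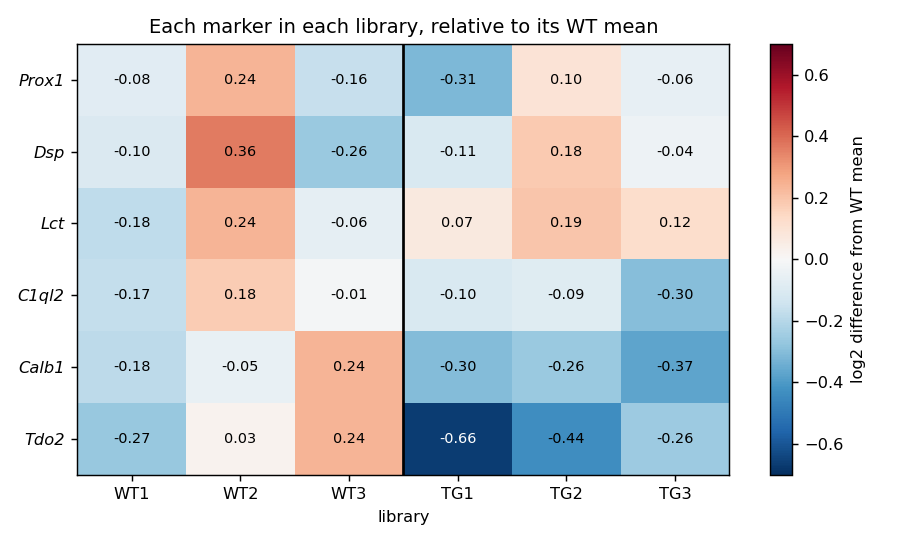
Log2 difference of each marker from its WT mean (colour and printed value) in the 6 libraries, with the 3 WT libraries left of the black line. Prox1, Dsp and Lct are high in WT2 and TG2, Calb1 and Tdo2 are highest in WT3 and below 0 in each TG library.

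The 6 markers did not move as 1 block across the libraries. WT2 was the highest library for Prox1, Dsp, C1ql2 and Lct, and WT3 was the highest for Calb1 and Tdo2. Above their WT mean lay 5 of the 6 markers in WT2 but 0 in WT1 and 2 in WT3, and 1, 3 and 1 of them in the TG libraries. As a measure of likeness, the root-mean-square difference of centred log2 values over the 6 libraries was 0.0993 between Prox1 and Dsp, the closest pair, and 0.366 between Dsp and Tdo2, the farthest pair. Calb1 and Tdo2 were 0.161 apart. The summed FPKM of the 6 markers was 103.3 to 127.4 in WT and 97.4 to 109.2 in TG libraries.

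Among 11911 other protein-coding genes with a mean of at least 1 FPKM, the profiles nearest to the mean of the 6 markers were sought. They were those of Luc7l2, Srsf11, Il1rap, Qrsl1 and Ints6. Their root-mean-square differences were 0.0216 to 0.0402 over 6 libraries, where the median candidate lay at 0.181. Nearest to a single marker were Pabpn1 for Prox1 (0.0512), Ccdc9b for Dsp (0.0615), Fcor for Tdo2 (0.0833), Aloxe3 for C1ql2 (0.0338), Zfp446 for Lct (0.0325) and Epor for Calb1 (0.0321). Epor, the erythropoietin receptor, had 2.882, 3.081 and 3.786 FPKM in the WT and 2.573, 2.692 and 2.617 FPKM in the TG libraries. The likeness is given as a description, and all profiles share the same 6 libraries.

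Further genes enriched in the dentate gyrus were read as well, on a list chosen with earlier results of these data known. Of 11 such genes, all tested, 9 had negative and 2 positive log2 differences, where 10553 of all 20952 genes tested were negative. Their median was −0.02, beside the −0.00195 of all genes. Without WT2 this median was 0.08, and with 1 other library left out it lay between −0.13 and −0.06. After rescaling to equal FPKM totals it was 0.01, beside 0.03 for all genes. At an unadjusted p under 0.05 in limma, 2 were lower and 0 higher, where 2.78% of all genes tested were lower and 3.13% higher. Of the 11, 3 had every TG library below every WT library, a pattern that 5.71% of all genes showed. Trpc6, a calcium-permeable channel, had 3.908, 4.387 and 4.238 FPKM in WT and 3.143, 3.524 and 3.64 FPKM in TG libraries. Its log2 difference was −0.28 ± 0.10 (SE, unadjusted p = 0.0278, adjusted p = 0.786, limma). Stxbp6, a syntaxin-binding protein, had 22.25, 25.89 and 23.75 FPKM in WT and 18.01, 21.8 and 21.51 FPKM in TG libraries, with a log2 difference of −0.23 ± 0.10 (SE, unadjusted p = 0.0499, adjusted p = 0.786, limma). Over the 16 other settings and left-out libraries, Trpc6 had an unadjusted p under 0.05 in 10 and Stxbp6 in 6. Without TG1, Stxbp6 differed by −0.14 (unadjusted p = 0.149, limma) and Trpc6 by −0.22 (unadjusted p = 0.0851, limma), and with the choroid plexus covariate the unadjusted p was 0.226 and 0.199 in limma. C1ql3, the partner of C1ql2 at mossy fibre synapses, had 23.45, 25.52 and 24.02 FPKM in WT and 22.51, 22.67 and 20.97 FPKM in TG libraries. Its groups did not overlap, although the log2 difference of −0.14 ± 0.07 (SE) had an unadjusted p of 0.0739 by limma. The most abundant of the list, Fam163b, had a mean of 59.6 ± 10.04 FPKM in WT and 58.1 ± 1.62 FPKM in TG (SD, n = 3). The others were Il16, Rspo3, Plk5, Dock10, Rfx3, Sema5a and Akap7, whose groups overlapped.

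**Figure D3:**
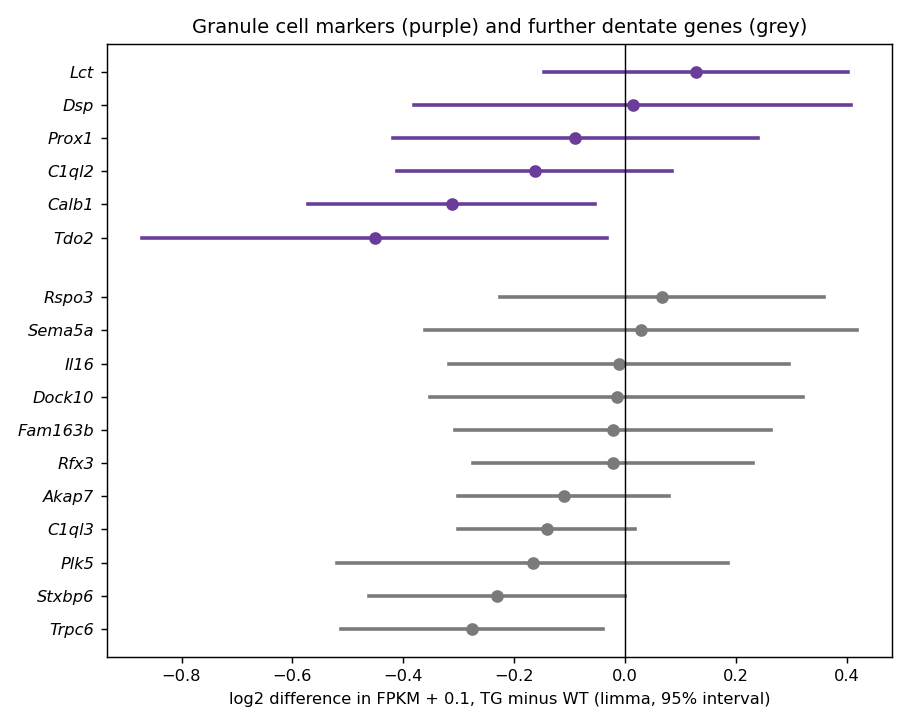
Log2 difference in FPKM + 0.1 between TG and WT libraries (horizontal axis, point) with its 95% limma interval (line), for the 6 markers (purple) and 11 further dentate genes (grey). The intervals of Tdo2, Calb1, Trpc6 and Stxbp6 end below 0 before adjustment, and all others cross 0.

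Transcription factors of the granule cell lineage and genes of immature granule cells showed no common shift. Of 10 lineage factors, among them Neurod1, Neurod2, Bcl11b and Zbtb20, 6 had positive and 4 negative log2 differences (median 0.08, and 0.01 without WT2 or WT3), and 0 passed an unadjusted p under 0.05 in limma in either direction. Neurod2, the most abundant, lay between 52.8 and 63.37 FPKM in WT and between 59.37 and 64.2 FPKM in TG. Of 7 genes of immature cells, 6 were tested, 3 in each direction, and 1 was lower at an unadjusted p under 0.05. This was Igfbpl1, a growth factor binding protein of young neurons, at 0.5492, 0.4762 and 0.5423 FPKM in WT and 0.35, 0.206 and 0.2044 FPKM in TG libraries. Igfbpl1 differed by −0.84 ± 0.28 on the log2 scale (SE, unadjusted p = 0.018, adjusted p = 0.786, limma), on only 12 to 33 reads a library. With 1 library left out, its unadjusted p ran up to 0.0542 in limma, and it was 0.07 with the choroid plexus covariate. Dcx, the doublecortin gene that marks newborn neurons, had means of 1.25 ± 0.164 and 1.29 ± 0.0564 FPKM (SD, n = 3). Eomes, of intermediate progenitors, was under the minimum.

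The kynurenine pathway, which Tdo2 opens, was thinly covered in this tissue. Of 12 genes, 7 were tested, and Ido1, Kmo, Kynu, Aadat and Acmsd lay under the minimum. Of the 7, 2 had positive and 5 negative log2 differences (median −0.15, ranging from −0.24 without WT3 to −0.07 without TG1), and Tdo2 was the 1 gene with an unadjusted p under 0.05 in limma. Kyat1, a kynurenine aminotransferase and the most abundant of them, had 3.738, 3.855 and 3.929 FPKM in WT and 3.243, 3.798 and 3.732 FPKM in TG libraries. Ido2, an enzyme of the same first step as Tdo2, had 0.3421, 0.4938 and 0.617 FPKM in WT and 0.6778, 0.6444 and 0.6244 FPKM in TG libraries, all TG above all WT, with an unadjusted p of 0.16 (limma) on 23 to 42 reads. Afmid, Haao, Kyat3 and Qprt were each at 0.6114 FPKM or less in every library and their groups overlapped.

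The relatives and partners of the other markers held few differences. Of 7 genes around C1ql2, 6 were tested and 0 passed an unadjusted p under 0.05 in limma. C1ql1, Nrxn3, the kainate receptor subunits Grik2 and Grik4 and the adhesion receptor Adgrb3 had overlapping groups, and C1ql4 was under the minimum. Of 15 desmosome partners of Dsp, 7 were tested, 5 with positive and 2 with negative differences and 0 past the unadjusted threshold. Their median of 0.14 turned to −0.02 without WT3 and to −0.02 among those with a mean of at least 1 FPKM. Of the desmosomal cadherins, Dsg2 and Dsc3 were tested, at 48 to 131 and 33 to 109 reads, while Dsg1b had 0 reads in all libraries and Dsc1 6 at most. Pkp4, a plakophilin relative and the most abundant of the list, lay between 46.8 and 54.8 FPKM, and Evpl, envoplakin, had the smallest unadjusted p, 0.154 in limma. Of 11 EF-hand calcium sensors and buffers, the group of Calb1, 10 were tested, 9 with negative and 1 with a positive difference (median −0.08), and 0 passed the unadjusted threshold. Calm2, a calmodulin gene and the most abundant of them, had 955.3 to 1263 FPKM in WT and 802.8 to 979.2 FPKM in TG. Calb2, the calretinin of mossy cells and immature granule cells, had 24.24, 18.47 and 21.33 FPKM in WT and 19.14, 17.47 and 12.42 FPKM in TG libraries, with a log2 difference of −0.40 ± 0.17 (SE, unadjusted p = 0.0533, limma). This value turned on the settings, as Calb2 differed by −0.21 without TG3 (unadjusted p = 0.148), by −0.72 with the choroid plexus covariate (unadjusted p = 0.00678) and by −0.77 without TG1 and TG2 (unadjusted p = 0.0162, all limma). It had an unadjusted p under 0.05 in 6 of 16 alternatives. Of 4 relatives of Lct among the disaccharidases, 1, Lctl, passed the minimum, with 10 reads at most.

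Markers of other hippocampal cells, and of neocortex and thalamus as regions the tissue could hold, were read beside these values. Of 6 CA1 genes, 5 had positive differences (median 0.14), the smallest unadjusted p was that of Wfs1, 0.0905 in limma, and Mpped1, the most abundant, had 63.14, 60.05 and 58.74 FPKM in the WT and 67.22, 62.67 and 65.06 FPKM in the TG libraries. Of 8 neocortex genes, 6 had positive differences and 2, Cux2 and Rspo1, were higher at an unadjusted p under 0.05 (limma). Rspo1 rested on 13 to 43 reads, and its groups overlapped. The most abundant, Fezf2, had 13.44 to 16.03 FPKM in WT and 12.58 to 17.63 FPKM in TG. On the log2 scale from the WT mean, the median of the list was 0.39 in TG3, 0.07 in TG1 and 0.04 in TG2. In WT libraries it was −0.13 to 0.10. TG3 is the TG library that remains in fits without TG1 and TG2. Of 7 CA3 genes, 6 had negative differences (median −0.10), and Iyd and Prss35 were lower, with log2 differences of −0.53 ± 0.18 and −0.42 ± 0.15 (SE) and an unadjusted p of 0.0226 and 0.0228 in limma. With the choroid plexus covariate Iyd differed by −0.22 (unadjusted p = 0.35) and Prss35 by −0.35 (unadjusted p = 0.163), and without TG1 and TG2 by −0.14 (unadjusted p = 0.352) and −0.42 (unadjusted p = 0.0876, all limma). Each had an unadjusted p under 0.05 in 10 of 16 alternatives. Bok, the most abundant CA3 gene, had 51.3 to 62.2 FPKM in WT and 48.1 to 58.0 FPKM in TG. The summed FPKM of the 5 CA2 genes, of which Rgs14 was the most abundant and Amigo2 had the smallest unadjusted p (0.0549, limma), was 54.3 to 60.5 in WT and 50.8 to 52 in TG libraries, and that of 6 mossy cell genes, led by Ociad2, 64.2 to 78.2 and 55.0 to 68.5. Of 9 oligodendrocyte genes, 9 had negative differences (median −0.30), summing to 664.8 to 832.4 FPKM in WT and 517.1 to 765.4 FPKM in TG, and Opalin, a myelin membrane protein, was lower at an unadjusted p of 0.00983 (limma). TG1 stood apart here, with a median of −0.66 on the log2 scale from the WT mean, against −0.16 in TG2, −0.07 in TG3 and −0.20 to 0.16 in WT libraries. Without TG1 the median difference of the list was −0.12, and Mbp, its most abundant gene, had 222 to 288.2 FPKM in WT and 196.3 to 286.5 FPKM in TG. Of 10 astrocyte genes and 8 general neuron genes, 0 passed an unadjusted p under 0.05 in limma, with median differences of 0.03 and 0.06. Gfap and Snap25 had the smallest p of these lists (0.214 and 0.245, unadjusted, limma), and Aldoc and Camk2a were the most abundant. Of 9 interneuron genes, led by Sst, and 8 thalamus genes, led by Ntng1, 0 passed the same threshold, with the smallest unadjusted p at 0.217 for Lhx6 and 0.0922 for Rora (limma). Of 8 microglia genes, 6 had positive differences. Csf1r was higher, at 18.9 to 19.9 FPKM in WT and 20.1 to 23.2 FPKM in TG (unadjusted p = 0.0446, limma), while the most abundant, C1qa, overlapped between groups. The TG libraries differed here, with a list median from the WT mean of −0.25 in TG1, 0.22 in TG2 and 0.23 in TG3 (log2). In WT libraries this median was −0.09 to 0.06. Of 6 endothelial genes, 4 had positive differences and Flt1 was higher, at 4.86 to 5.70 FPKM in WT and 5.94 to 6.64 FPKM in TG (unadjusted p = 0.0404, limma), while Ly6c1, the most abundant, overlapped. The Y-linked genes Ddx3y, the most abundant, and Eif2s3y, of the smallest p (0.152, unadjusted, limma), were read in all libraries at 339 reads or more, and Xist had 6 reads at most. The part of these shifts in the values of Calb1 and Tdo2 was not tested.

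**Figure D4:**
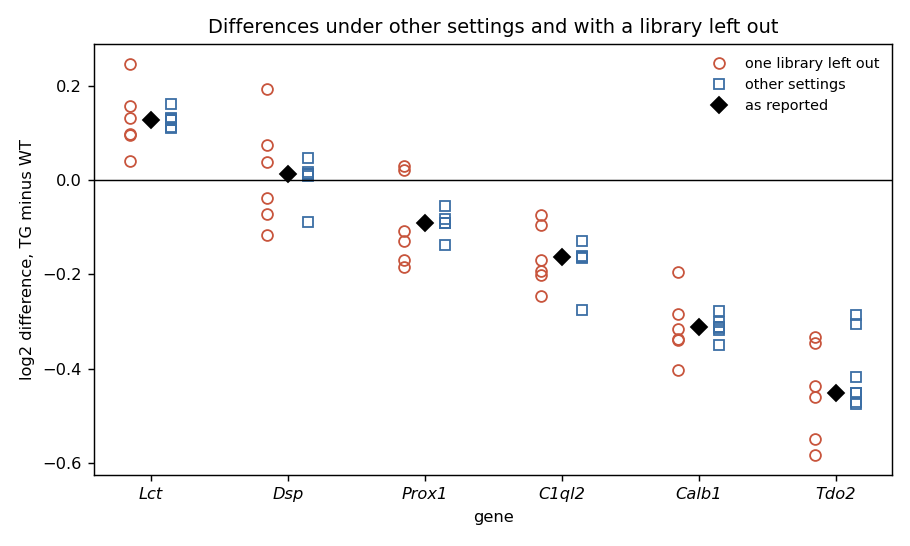
Log2 difference between TG and WT libraries (vertical axis) for each marker as reported (black diamond), with each library left out in turn (red circles) and under the other settings (blue squares). The points of Calb1, Tdo2 and C1ql2 all lie below 0 and those of Lct above 0, while those of Dsp and Prox1 lie on both sides.

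The 16 other settings and left-out libraries were not independent of each other, since many refit the same libraries. Over them, Calb1, Tdo2 and C1ql2 had a negative difference in 16 of 16 and Lct had a positive one in 16 of 16. Calb1 had an unadjusted p under 0.05 in 11 of these and Tdo2 in 10, and no marker reached an adjusted p below 0.657 in any of them (limma). The log2 difference of Calb1 stayed between −0.40 and −0.19 and that of Tdo2 between −0.58 and −0.26. Without WT2 the log2 difference of Prox1 was 0.03, and without TG1 it was 0.02, both on the other side of 0 from the reported value. Dsp took negative values of −0.04 without WT1, −0.12 without WT3 and −0.07 without TG2.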

How the data were processed

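Hippocampal RNA-seq libraries of 3 WT and 3 TG mice were grouped by their labels. The authors used HTSeq to count reads per gene, and they deposited FPKM for 54532 genes, 1 column per library, with no pooling stated, and the deposited table also gives gene lengths and positions. The aligner and the strand were not given in the sources used here, the submitters' processing notes name GRCm38 and mm10, and 53585 gene positions equalled those of GENCODE M21. The methods and the labels name different extraction and library kits. FPKM times length gave whole reads for 100% of the values (tolerance 0.05 reads), from which counts were recovered. Intervals from counts cover counting error only, since no molecular identifiers separate molecules from PCR copies.

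Genes whose FPKM averaged 0.1 or more were compared on log2(FPKM + 0.1), which understates the change of low genes, with limma 3.58.1 (R 4.3.3, lmFit and eBayes with a trend, no covariate), Benjamini-Hochberg adjustment over 20952 genes and a threshold of 0.05. The fit was tested on simulated data. The members and gene lists were chosen with earlier results of these data known, and 1 gene was left out of its list and is not reported here. Named genes were the 6 markers, for each list its most abundant gene and the one of smallest p, every further dentate, kynurenine and C1ql gene, and the genes nearest in profile. Dcx, Eomes, Prss35, Rspo1, Fos, Bdnf, Inhba, Nptx2, Sv2c, the peptide genes, the desmosomal cadherins and single lineage factors were chosen after their values were seen. Alternatives were other pseudocounts, filters, scaling and variance models, voom on recovered reads, a replicate block, a choroid plexus covariate, each library left out in turn and, added after seeing the data, TG1 and TG2 left out together. Python 3.11.15, numpy 2.4.6, pandas 2.3.3 and matplotlib 3.10.9 were used.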

Additional observations from a re-analysis of the deposited data

How the results depend on the processing

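With 3 libraries a group, and Tdo2 on 79 to 181 reads, differences of the size seen here lie close to the spread between libraries. The number of the 6 markers lower at an unadjusted p under 0.05 in limma was 2 as reported and 1 without a variance trend. It was 0 with the choroid plexus covariate and 0 (without TG1) to 2 with 1 library left out. The number higher was 0 as reported and 0 to 1 with 1 library left out, the 1 being Lct without WT2. The choroid plexus score was high only in TG1 and TG2, so the covariate and the group cannot be fully told apart. With the covariate, Calb1 differed by −0.35 and Tdo2 by −0.29, against −0.31 and −0.45 as reported. The difference of Prox1 ran from −0.18 to 0.03 and that of Dsp from −0.12 to 0.195 with 1 library left out (without WT2 in the latter), and Dsp was −0.088 with the choroid plexus covariate and −0.04 without TG1 and TG2. The cause was not tested. Over all genes tested, the count higher was 330 with the covariate, 417 without TG1 and TG2, and 440 to 769 with 1 library left out. The count lower was 368 with the covariate and 375 (without TG1) to 721 (without WT2) with 1 library left out. Rescaling to equal FPKM totals gave 740 higher and 454 lower, against 656 and 582 as deposited, and moved the median of all genes to 0.03. The count at an adjusted p under 0.05, 2 as reported, was 0 with a pseudocount of 1 or 0.01, without a filter, with rescaling, voom, the replicate block, the covariate, or without TG1 and TG2, 1 at a mean FPKM of at least 1, 9 without a variance trend, and 0 to 11 (without TG1) with 1 library left out. Replicate numbers did not pair the libraries (correlations of same-numbered deviations 0.013, 0.043 and 0.003, against −0.027 to 0.016 for others), and with the replicate block 634 genes were higher and 610 lower, with an unadjusted p of 0.0379 for Calb1 and 0.017 for Tdo2 (limma).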

Other observations

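Genes on a list of activity-regulated mossy fibre and granule cell genes did not share a direction. In RNA of a whole hippocampus, their reads cannot be assigned to granule cells rather than to other neurons. Of 10 such genes, 5 had positive and 5 negative log2 differences between TG and WT libraries, with a median of 0.04. Positive were Arc, Fos, Inhba, Nptx2 and Sv2c, and negative were Bdnf, Npy, Penk, Pdyn and Scg2. Arc, an immediate early gene of synaptic plasticity, had 46.69, 64.91 and 60.33 FPKM in the WT and 91.24, 62.94 and 86.65 FPKM in the TG libraries. TG1 and TG3 exceeded every WT library, and TG2 lay among them. Arc differed by 0.48 ± 0.17 on the log2 scale (SE, unadjusted p = 0.0266, adjusted p = 0.786, limma), and the unadjusted p was under 0.05 in 10 of 16 alternatives and 0.0939 without TG1. Fos, another early gene of the list, had 7.198, 9.055 and 10.06 FPKM in the WT and 13.65, 7.898 and 12.24 FPKM in the TG libraries. TG1 and TG3 were again the high libraries. Scg2, a granin of dense-core vesicles and the most abundant of the list, had 62.95, 73.8 and 88.69 FPKM in the WT and 67.67, 62.99 and 69.61 FPKM in the TG libraries. Its highest library was WT3, as it was for Calb1 and Tdo2, and for Bdnf, which had 9.691 FPKM there and 6.412 to 8.156 FPKM in all others. The peptide genes Penk, Pdyn and Npy had overlapping groups, and Npy was also on the list of interneuron genes.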
